A study of Rattus norvegicus with 3 samples.

Results

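Gpr63, Map2k6, Grid1, Cog2 and Klhl3 are 5 of the 22250 genes counted in nuclei of the rat heart, and they were chosen by their low levels in cardiomyocytes of both dystrophin-mutant genotypes against WT. The choice used the ratio of BMD to WT and of DMD to WT in cardiomyocyte nuclei, so those ratios describe the choice and carry no test. All 5 genes were found under their symbols in the lists of all 3 libraries. The questions asked of them were whether the lower level was also seen in other cell types, in the share of nuclei that held the transcript at equal depth, and in the RNA outside nuclei.

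The 3 libraries came from the heart apex, with part of the septum and of both ventricles, of rats aged 12 months, with 1 library each for WT, BMD and DMD and no replicate. WT rats were littermates with an unedited Dmd gene. BMD rats (R-BMDdel45-47) carried an in-frame deletion of Dmd exons 45 to 47 made with CRISPR/Cas9, and DMD rats (R-DMDdel52) lacked exon 52. Nuclei stained with DAPI were sorted by flow cytometry and their RNA was counted by unique molecular identifiers (UMIs), where 1 UMI stands for 1 captured molecule. With 1 library per genotype no p-value was computed, the comparisons of BMD and of DMD share the WT library, and differences between animals or preparations cannot be told apart from genotype. All intervals below are at 95% and cover counting error only, and 3 values given in a row stand for WT, BMD and DMD in that order.

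The 5 proteins belong to different families. Gpr63 is an orphan G protein-coupled receptor related to receptors for lysophospholipids, and Grid1 encodes the delta-1 member of the ionotropic glutamate receptor family, known as an organiser of synapses that binds cerebellins. Map2k6 is the kinase MKK6, which phosphorylates and activates p38 mitogen-activated protein kinases, a stress pathway of heart muscle. Cog2 is a subunit of the conserved oligomeric Golgi (COG) complex, which tethers vesicles that return enzymes within the Golgi stack, and Klhl3 is an adaptor that brings WNK kinases to the cullin-3 ubiquitin ligase and is best known from salt handling in the kidney.

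As the members were grouped by a common direction, the stretches before their gene starts are shown for a reader who wants to compare them. RefSeq (build GRCr8) held such a sequence for 4 of the 5 members, at chr5:43477780-43478029 for Gpr63, chr10:95872497-95872746 for Map2k6, chr19:69391082-69391331 for Cog2 and chr17:6528237-6528486 for Klhl3, all on the plus strand. Each run gives the 250 bases before the start, 5′ to 3′, with every match to the E-box letters CANNTG in capitals, where overlapping matches run together. The counts themselves were made on build rn6, and no peak or factor binding was measured in these nuclei.
Gpr63: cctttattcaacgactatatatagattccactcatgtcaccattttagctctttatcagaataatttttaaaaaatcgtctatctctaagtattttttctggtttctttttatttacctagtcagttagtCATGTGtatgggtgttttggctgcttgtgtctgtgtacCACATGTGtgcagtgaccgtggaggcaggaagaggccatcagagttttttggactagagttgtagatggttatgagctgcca
Map2k6: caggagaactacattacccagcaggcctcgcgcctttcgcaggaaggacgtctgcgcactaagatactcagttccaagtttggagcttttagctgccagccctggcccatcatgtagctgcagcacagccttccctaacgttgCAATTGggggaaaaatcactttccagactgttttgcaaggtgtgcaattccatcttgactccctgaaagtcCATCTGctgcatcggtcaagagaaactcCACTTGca
Cog2: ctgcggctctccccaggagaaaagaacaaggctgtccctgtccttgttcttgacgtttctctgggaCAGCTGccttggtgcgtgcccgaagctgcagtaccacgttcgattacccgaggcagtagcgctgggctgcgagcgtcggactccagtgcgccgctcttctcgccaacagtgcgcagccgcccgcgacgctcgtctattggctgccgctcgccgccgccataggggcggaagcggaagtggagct
Klhl3: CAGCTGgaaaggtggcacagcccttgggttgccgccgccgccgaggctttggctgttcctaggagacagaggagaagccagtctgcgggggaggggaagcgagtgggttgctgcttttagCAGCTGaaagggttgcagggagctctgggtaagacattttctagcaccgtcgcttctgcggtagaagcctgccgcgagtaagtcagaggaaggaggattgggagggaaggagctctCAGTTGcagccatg

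All 4 stretches held an E-box, with 3 matches for Gpr63, 3 for Map2k6, 1 for Cog2 and 3 for Klhl3, but 65.5% of the 33469 RefSeq stretches of the same length held one too. A MEF2 box occurred in 1 of the 4, in Gpr63 at 236 bases before the start, against 3.41% of all stretches. None of the 4 held a second form of the MEF2 box (5.62% of all), the AP-1 letters TGACTCA (4.05%) or a CArG-like box (8.46%). None held the TEAD letters CATTCC (12.1%). The GATA letters AGATAA (10.3%) were absent too, as was a TATA box (12.9%). Both strands were searched. The share of G and C ranged from 38% in Gpr63 and 51.2% in Map2k6 to 59.6% in Klhl3 and 64.4% in Cog2, beside a median of 51.2% over all stretches, so the 4 members had no base composition in common.

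BMD gave 21142346 UMIs and DMD 19215994 in their own matrices. WT had 21609238 UMIs in a matrix that joins the 3 libraries. That matrix keeps 76.1% of the BMD and 92.9% of the DMD UMIs, so the WT total is not comparable with the others. Among the 24664 nuclei, 44 barcodes occurred in more than 1 library. Clustering without the 5 members gave a class of 4675 cardiomyocyte-like nuclei, 2050 from WT, 1539 from BMD and 1086 from DMD, in which all 12 cardiomyocyte markers found were raised at least 2-fold over the other nuclei. The deleted exons are a small part of Dmd, and its count, 16461 counts scaled to 1000000 UMIs (CPM) in WT, 20530 in BMD and 19451 in DMD cardiomyocyte-like nuclei, does not check the genotypes. Markers of other cell types were present at low levels in this class. Their summed levels in WT, BMD and DMD were 223, 151 and 430 CPM for 11 fibroblast markers, 119, 173 and 208 CPM for 11 endothelial markers, 111, 93.0 and 123 CPM for 12 macrophage markers and 1007, 1017 and 698 CPM for 10 mural markers. Their part in the results below was not tested.

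Both membrane receptors were lower in the mutant cardiomyocytes. Gpr63 (ENSRNOG00000007675) stood at 98.9 CPM (91.3 to 107) in WT nuclei, 23.0 CPM (19.5 to 26.9) in BMD nuclei and 23.8 CPM (19.3 to 29.2) in DMD nuclei. Its level was thus 23.3% of that in WT for BMD and 24.1% for DMD, a difference that the choice of the members had set. On the scale of log2(CPM + 5), used for every ratio here, the difference from WT was -1.89 (-2.11 to -1.67) for BMD and -1.85 (-2.12 to -1.58) for DMD. Grid1 (ENSRNOG00000055499) stood at 57.0 CPM (51.3 to 63.1) in WT nuclei, 17.5 CPM (14.4 to 20.9) in BMD nuclei and 18.5 CPM (14.5 to 23.3) in DMD nuclei. The log2 ratio of Grid1 was -1.46 (-1.71 to -1.21) for BMD and -1.40 (-1.70 to -1.10) for DMD, and the levels of the 2 mutants lay inside each other's intervals.

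The p38-activating kinase and the members of the Golgi and ubiquitin machinery were lower too, with a larger ratio for Map2k6 than for Cog2 and Klhl3 in BMD. Map2k6 (ENSRNOG00000004437) was measured at 86.6 CPM (79.5 to 94.1) in WT nuclei, 19.0 CPM (15.8 to 22.6) in BMD nuclei and 25.4 CPM (20.6 to 30.9) in DMD nuclei, which gave log2 ratios of -1.93 (-2.17 to -1.70) for BMD and -1.59 (-1.86 to -1.33) for DMD. Cog2 (ENSRNOG00000018228) was measured at 109 CPM (101 to 117) in WT nuclei, 43.1 CPM (38.3 to 48.4) in BMD nuclei and 31.5 CPM (26.2 to 37.5) in DMD nuclei. Its interval in BMD lay wholly above that in DMD, and the log2 ratios over WT were -1.24 (-1.42 to -1.06) and -1.64 (-1.89 to -1.40). Klhl3 (ENSRNOG00000019533), the least counted member with 191 UMIs (WT), 66 (BMD) and 36 (DMD), was measured at 29.7 CPM (25.7 to 34.3), 9.85 CPM (7.62 to 12.5) and 9.13 CPM (6.40 to 12.6). Its log2 ratios were -1.23 (-1.52 to -0.92) for BMD and -1.30 (-1.65 to -0.93) for DMD.

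**Figure D1:**
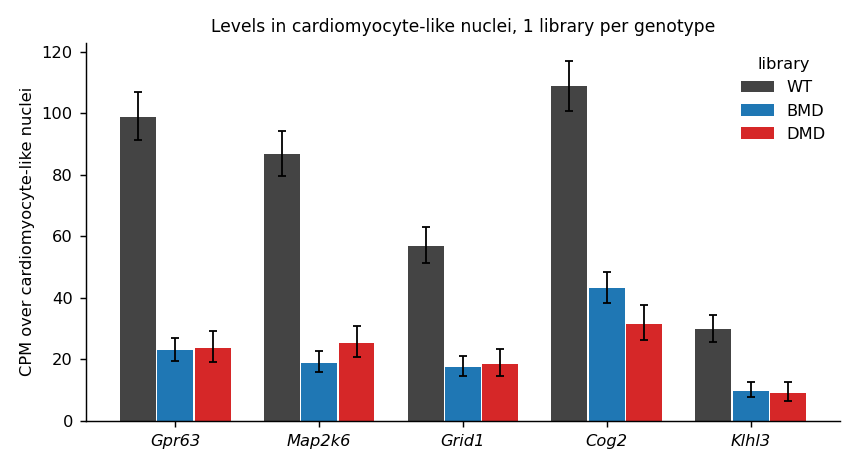
Level of each member in CPM (y axis) over the cardiomyocyte-like nuclei of the WT, BMD and DMD libraries, with bars for 1 library each and error bars for the exact Poisson interval at 95%. For every member the WT bar stands above both mutant bars, for example 98.9 CPM against 23.0 and 23.8 CPM for Gpr63, since the members were chosen for this.

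Over all 10172 genes with at least 50 UMIs in cardiomyocyte-like nuclei, 4.92% were lower than WT by 1.5-fold or more in BMD, 5.91% in DMD and 2.44% in both, while all 5 members were, which the choice of the members had fixed. The median log2 ratio of the members was -1.46 in BMD and -1.59 in DMD, beside -0.04 and -0.02 over all genes. Ranked from the lowest by whichever ratio was nearer 0, among genes with at least 100 UMIs, the members took places 1 (Gpr63), 3 (Map2k6), 6 (Grid1), 7 (Cog2) and 8 (Klhl3). The places between were those of Dhrs7c, Rpl35 and Fth1. Just inside the list Klhl3 had -1.23, and just outside it Actr3b had -1.19 and Golm1 -1.18, so the edge of the list fell in a continuous run of values.

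Between the mutant libraries, both of which were used in the choice, Cog2 and Map2k6 differed by more than counting error over the whole class. Cog2 was lower in DMD than in BMD, with a log2 ratio of DMD over BMD of -0.40 (-0.67 to -0.13), and Map2k6 was higher, with 0.34 (0.02 to 0.66), or 0.79 with free RNA subtracted. For Gpr63 the ratio was 0.04 (-0.27 to 0.36), for Grid1 0.07 (-0.28 to 0.41) and for Klhl3 -0.07 (-0.47 to 0.33), so differences of up to about these limits in either direction were not detectable at this depth. The median of the 5 was 0.04, beside 0.01 over all genes.

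WT cardiomyocyte-like nuclei had the highest level of Gpr63, Grid1 and Cog2 among the 7 classes of nuclei compared, but not of Map2k6 or Klhl3. In WT, Gpr63 at 98.9 CPM was followed by fibroblast-like nuclei at 27.7 CPM (23.2 to 32.8), lymphatic-like at 26.2 (7.14 to 67.1) and mural-like at 24.7 (14.4 to 39.6), 3 classes whose intervals overlapped, and then by macrophage-like, endothelial-like and T or B-like nuclei at no more than 4.96 CPM. Grid1 was nearly limited to cardiomyocyte-like nuclei, with 84.3% of its 434 UMIs in WT nuclei (80.6 to 87.6) and no more than 6.55 CPM in any other class. Cog2 was spread more widely, from 59.6 CPM in macrophage-like nuclei down to 32.7 CPM in lymphatic-like nuclei, all with overlapping intervals. Map2k6 was highest in T or B-like nuclei at 165 CPM (123 to 217) and endothelial-like nuclei at 131 CPM (112 to 151), ahead of cardiomyocyte-like nuclei, which overlapped with the mural-like, lymphatic-like and fibroblast-like classes. Klhl3 was highest in T or B-like nuclei at 159 CPM (117 to 210) and lymphatic-like nuclei at 131 CPM (80.0 to 202), and cardiomyocyte-like nuclei came in the fifth place, overlapping with fibroblast-like nuclei at 32.2 CPM (27.4 to 37.6).

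Cardiomyocyte-like nuclei held a smaller part of the UMIs of each member in DMD. In BMD this held for Gpr63, Map2k6 and Klhl3, while Cog2 was nearly level with WT and Grid1 was not lower. The cardiomyocyte counts had chosen the members, so a smaller part was largely set by the choice and is no independent support. Of all Gpr63 UMIs in nuclei, cardiomyocyte-like nuclei held 68.6% (65.5 to 71.6) for WT, 52.2% (46.3 to 58.0) for BMD and 38.1% (32.0 to 44.4) for DMD. For Map2k6 these shares were 37.2%, 16.3% and 13.6%, and for Klhl3 30.9%, 17.9% and 8.96%. Cog2 had 53.7% (WT), 52.9% (BMD) and 30.7% (DMD), and Grid1 84.3%, 87.3% and 72.3%. The share also moves with the number of nuclei and their depth, and cardiomyocyte-like nuclei were 20.6% (WT), 22.6% (BMD) and 13.8% (DMD) of the nuclei.

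Outside cardiomyocytes the members behaved differently from one another. Of the 60 pairs of a member, another class and a mutant, 35 had at least 20 UMIs over the mutant and WT. Among those 35 the ratio was below 0 in 23, with an interval wholly below 0 in 10 and wholly above 0 in 2. The share of all genes with such ratios or intervals is not given here, so these counts have no background. Medians over all genes in these classes lay from -0.05 (fibroblast-like, BMD) to 0.04 (T or B-like, BMD). The 10 were all of Cog2 or Map2k6. The difference between cardiomyocyte-like nuclei and another class was not tested, as each genotype was 1 library.

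Cog2 was lower in most classes. In fibroblast-like nuclei Cog2 was at 54.0 (WT), 35.2 (BMD) and 33.7 CPM (DMD), with log2 ratios of -0.56 (-0.86 to -0.26) for BMD and -0.61 (-0.90 to -0.33) for DMD. In macrophage-like nuclei the Cog2 levels were 59.6, 28.6 and 29.1 CPM, with log2 ratios of -0.94 (-1.63 to -0.26) for BMD and -0.92 (-1.69 to -0.17) for DMD. In endothelial-like nuclei they were 39.6, 25.1 and 24.2 CPM, with log2 ratios of -0.57 (-1.07 to -0.05) for BMD and -0.61 (-1.11 to -0.11) for DMD. WT was thus the highest of the 3 libraries in each of these classes. In endothelial-like nuclei with at least 1000 UMIs the ratio was -0.36 in BMD and -0.01 in DMD, so the DMD value of that class was not seen in its deeper nuclei. Mural-like nuclei gave 43.7, 25.9 and 18.8 CPM of Cog2 and log2 ratios of -0.66 (-1.50 to 0.18) for BMD and -1.03 (-1.91 to -0.16) for DMD. T or B-like nuclei, with 16, 4 and 15 UMIs, and lymphatic-like nuclei, with 5, 13 and 6 UMIs, gave no single direction. The 12 cardiomyocyte markers summed to 511 (WT), 954 (BMD) and 854 CPM (DMD) in fibroblast-like nuclei, and to 662, 1479 and 1217 CPM in macrophage-like nuclei. Cog2 itself was highest in WT free RNA, at 63.5, 39.4 and 16.9 CPM. The part of carried-over RNA in the Cog2 levels of these classes was not tested.

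Map2k6 differed by class. It was lower in fibroblast-like nuclei, at 76.6 (WT), 60.1 (BMD) and 52.2 CPM (DMD), with log2 ratios of -0.33 (-0.57 to -0.08) for BMD and -0.51 (-0.75 to -0.27) for DMD. In endothelial-like nuclei Map2k6 was at 131, 106 and 67.2 CPM, with log2 ratios of -0.29 (-0.58 to 0.00) for BMD and -0.91 (-1.22 to -0.60) for DMD, so the level was lowest in DMD there. Macrophage-like nuclei went the other way. There Map2k6 was at 59.6 (WT), 80.3 (BMD) and 113 CPM (DMD), with log2 ratios of 0.40 (-0.13 to 0.94) for BMD and 0.87 (0.33 to 1.40) for DMD. In T or B-like nuclei it was at 165, 225 and 188 CPM, in lymphatic-like nuclei at 78.6, 99.5 and 96.1 CPM and in mural-like nuclei at 84.4, 88.8 and 58.0 CPM, and all 6 of these intervals held 0.

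In the other named classes, no log2 ratio of Gpr63 or Klhl3 had an interval wholly below 0. Gpr63 in fibroblast-like nuclei was at 27.7 (WT), 21.2 (BMD) and 25.4 CPM (DMD), with log2 ratios of -0.32 (-0.69 to 0.05) for BMD and -0.11 (-0.44 to 0.23) for DMD. In mural-like nuclei, pericytes and smooth muscle cells of the vessel wall, Gpr63 had 17, 28 and 23 UMIs, or 24.7, 51.8 and 39.3 CPM, and log2 ratios of 0.93 (0.13 to 1.73) for BMD and 0.57 (-0.26 to 1.40) for DMD. Klhl3 in T or B-like nuclei was at 159, 97.0 and 101 CPM, with log2 ratios of -0.68 (-1.44 to 0.04) for BMD and -0.62 (-1.31 to 0.05) for DMD. Those upper limits were just above 0. Klhl3 was at 56.5, 53.5 and 48.9 CPM in endothelial-like nuclei and at 32.2, 27.0 and 27.1 CPM in fibroblast-like nuclei, with intervals on both sides of 0.

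Grid1 could not be followed outside cardiomyocytes, as no other class reached 20 UMIs in a mutant and WT together. It had 12, 6 and 6 UMIs in fibroblast-like nuclei of WT, BMD and DMD. In macrophage-like nuclei it had 0, 1 and 0 UMIs, and the counts of 0 allow up to 3.72 CPM in WT and 5.46 CPM in DMD, taking 3 counts as the limit.

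Set against all genes of the same class, the count of members lower by 1.5-fold or more was 0 of 3 in BMD and 2 of 3 in DMD for endothelial-like nuclei (all genes 6.02% and 3.02%), and 0 of 4 and 1 of 4 for fibroblast-like nuclei (6.34% and 2.92%). It was 1 of 2 in either mutant for macrophage-like nuclei (10.7% and 9.02%) and 1 of 3 in either mutant for mural-like nuclei (8.45% and 6.11%), where only members with at least 50 UMIs in the class were counted. In T or B-like nuclei it was 1 of 2 in either mutant (12.2% and 7.92%), and in lymphatic-like nuclei 0 of 2 (9.92% and 9.21%). The calls were Klhl3 in T or B-like nuclei, with intervals that held 0, and Cog2 elsewhere, apart from the second one in DMD endothelial-like nuclei, which was Map2k6. The median ratio over all 5 members was -0.32 in BMD and -0.21 in DMD fibroblast-like nuclei, beside -0.05 and -0.02 for all genes, and -0.16 and -0.31 in endothelial-like nuclei, beside -0.04 and -0.01. It was 0.35 and 0.00 in macrophage-like nuclei, beside 0.03 and 0.02, and 0.07 and -0.21 in mural-like nuclei, beside -0.03 in both. It was -0.68 and 0.00 in T or B-like nuclei, beside 0.04 and 0.02, and -0.10 and -0.47 in lymphatic-like nuclei, beside 0.01 and 0.03. Both macrophage-like medians were the value of Grid1 alone, with 0 (WT), 1 (BMD) and 0 UMIs (DMD), and so describe no change. So was the 0.00 of DMD T or B-like nuclei, where Grid1 had 0 UMIs in WT and DMD. The endothelial-like, lymphatic-like and DMD mural-like medians also fell on members under the limit of 20 UMIs. In fibroblast-like nuclei all 5 members had a ratio below 0 in both mutants. In endothelial-like nuclei 4 of 5 did in BMD and all 5 in DMD. These counts include members under the limit of 20 UMIs, and only Cog2 and Map2k6 had intervals wholly below 0 there. The share of all genes below 0 is not given beside them. In the remaining classes the members below 0 ranged from 1 of 5 (macrophage-like, BMD) to 4 of 5 (mural-like, DMD). The members thus had no direction common to all classes outside cardiomyocytes.

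**Figure D2:**
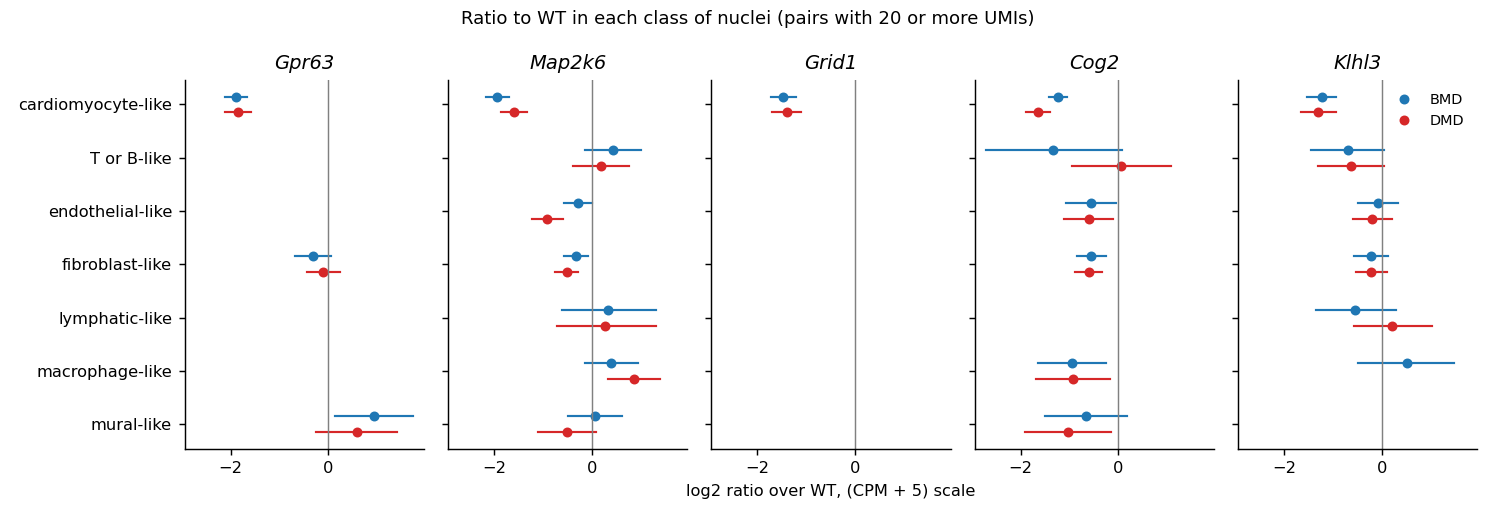
Log2 ratio over WT on the CPM + 5 scale (x axis) in each class of nuclei (y axis), 1 panel per member, with points for BMD (blue) and DMD (red) and lines for the counting interval at 95%, shown where the mutant and WT together had at least 20 UMIs. The points of cardiomyocyte-like nuclei lie between -1.93 and -1.23, those of Cog2 stay left of 0 in fibroblast-like, endothelial-like, macrophage-like and mural-like nuclei, and Grid1 has points in cardiomyocyte-like nuclei only.

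A separate cluster of 691 nuclei, 345 from WT, 148 from BMD and 198 from DMD, was left unnamed. No marker of any class was raised 2-fold in it, so its cell type is not known. It was led by Adarb2, Oca2 and Kcnj5 and its nuclei had a median of 4149 UMIs. All 5 members were lower there too. Gpr63 was at 74.0, 22.5 and 12.2 CPM, Cog2 at 96.2, 40.2 and 28.9 CPM, and Map2k6 at 86.1, 39.0 and 45.5 CPM. Grid1 was at 33.0, 5.91 and 16.7 CPM, and Klhl3 at 35.0, 20.1 and 17.8 CPM with an interval in BMD that reached 0.01. In the 3 other unnamed clusters the ratios of the members lay on both sides of 0. One of them had 8 endothelial and 7 endocardial markers raised. There Klhl3 had 21, 12 and 24 UMIs, or 141, 52.8 and 73.2 CPM. Its log2 ratios were -1.34 (-2.39 to -0.31) for BMD and -0.90 (-1.76 to -0.03) for DMD. Map2k6 in that cluster had -1.05 (-2.29 to 0.18) for BMD and -1.38 (-2.54 to -0.19) for DMD, while both intervals of Cog2 held 0. These clusters were examined after the values were seen.

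Within the cardiomyocyte-like nuclei, finer clustering separated a cluster held mostly by WT from one held mostly by the mutants. The first had 1245 WT, 127 BMD and 119 DMD nuclei and was led by Dhrs7c, Ky and Angpt1, and the second had 757, 1358 and 933 nuclei and was led by Xirp2. Inside the second, Gpr63 was at 90.5 (WT), 22.9 (BMD) and 24.8 CPM (DMD), with log2 ratios of -1.77 and -1.68 that were close to those over the whole class. Cog2 was at 107, 42.5 and 31.3 CPM and Grid1 at 50.1, 17.1 and 18.6 CPM there. Map2k6 and Klhl3 were higher in the first cluster than in the second among WT nuclei, at 113 against 52.4 CPM for Map2k6 and 38.7 against 18.7 CPM for Klhl3. Their ratios inside the second cluster were -1.33 in BMD and -0.97 in DMD for Map2k6 and -0.74 (-1.15 to -0.32) and -0.67 (-1.13 to -0.20) for Klhl3. In the first cluster Map2k6 had -1.60 and -0.99, while Klhl3 had -0.29 (-1.18 to 0.53) in BMD and -2.25 (-3.11 to -0.60) in DMD. These Klhl3 ratios came from 138 (WT), 10 (BMD) and 1 UMI (DMD). In another cluster of 60, 112 and 67 nuclei led by Gadd45g and Nppb, Klhl3 had -1.27 (-2.20 to 0.69) and 0.39 (-1.74 to 2.30). With 2 (WT), 1 (BMD) and 3 UMIs (DMD) there, these ratios cannot show whether its level was lower.

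The depth of the nuclei also differed, with medians of 2763 (WT), 3754 (BMD) and 3248.5 UMIs (DMD) in cardiomyocyte-like nuclei. WT counts came from the joined matrix, which keeps 76.1% of the BMD and 92.9% of the DMD UMIs. BMD and DMD counts came from their own matrices, so these medians and the strata below mix 2 sources. The part of this in the depth difference was not tested. In nuclei of at least 2000 but under 4000 UMIs, 909 from WT, 607 from BMD and 460 from DMD, the log2 ratios in BMD and DMD were -2.18 and -1.64 for Gpr63, -1.76 and -1.42 for Map2k6, -1.69 and -1.51 for Grid1, -1.06 and -1.71 for Cog2, and -1.30 and -1.37 for Klhl3. In nuclei of 4000 UMIs or more they ranged from -1.16 (Klhl3) to -1.91 (Map2k6) in BMD and from -1.21 (Klhl3) to -2.07 (Gpr63) in DMD. Under 2000 UMIs the values were also below 0, but the upper limits of Grid1 in BMD (0.13) and of Klhl3 in BMD (0.24) and DMD (0.02) passed it.

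Nppa and Nppb, the natriuretic peptide genes of strained heart muscle, split the class in a different way. After each nucleus was drawn down to 500 UMIs, 17.3% (WT), 46.8% (BMD) and 47.6% (DMD) of the nuclei held a UMI of either gene. In nuclei without one, Gpr63 was at 96.3 (WT), 28.2 (BMD) and 26.5 CPM (DMD), and Map2k6 at 93.4, 19.2 and 28.5 CPM. In nuclei with one, Gpr63 was at 111, 17.5 and 20.9 CPM and Map2k6 at 55.1, 18.7 and 21.9 CPM. WT had the highest level of all 5 members on both sides of the split. The members were chosen on these same nuclei, so the values within depth strata, clusters and this split describe where the lower level lay and are no independent support for it.

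**Figure D3:**
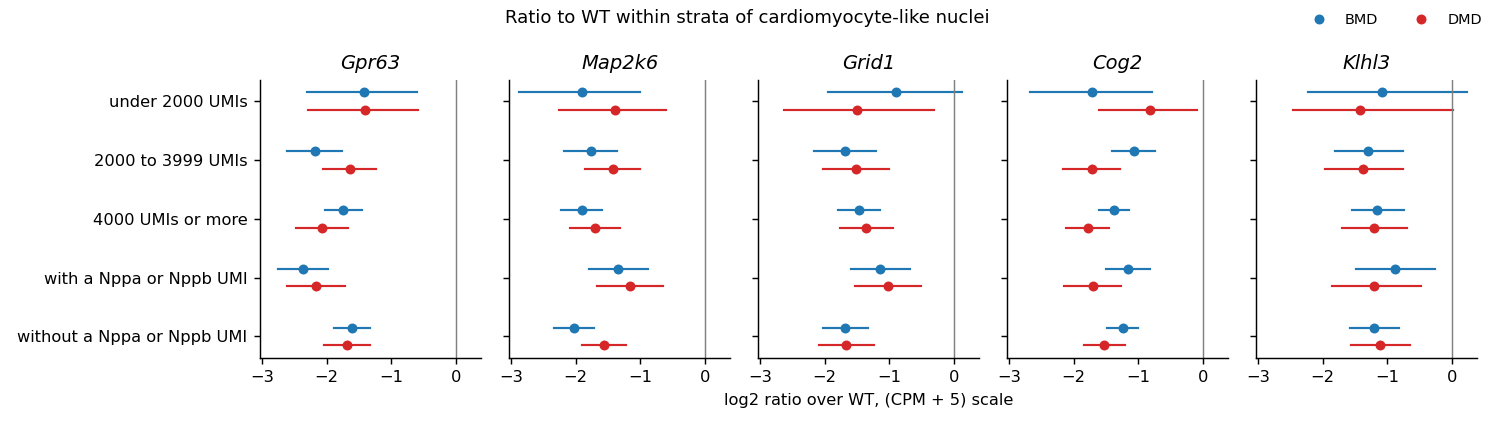
Log2 ratio over WT on the CPM + 5 scale (x axis) within 3 depth strata of cardiomyocyte-like nuclei and with or without a Nppa or Nppb UMI (y axis), 1 panel per member, with points for BMD (blue) and DMD (red) and lines for the counting interval at 95%. Every point lies left of 0, and the interval passes 0 for Grid1 in BMD and for Klhl3 in both mutants under 2000 UMIs.

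The share of nuclei with a UMI depends on depth, so each nucleus was drawn down at random to the same number of UMIs before it was counted. The members were chosen on these same cardiomyocyte-like nuclei, so lower shares there describe the lower level and are no independent support for it. At 500 UMIs, 96 of 2050 WT cardiomyocyte-like nuclei held Gpr63, or 4.68% (exact Clopper-Pearson interval 3.81 to 5.69), against 1.17% (0.70 to 1.84) for BMD and 1.66% (0.99 to 2.61) for DMD. Map2k6 was found in 5.02% (4.12 to 6.06), 0.78% (0.40 to 1.36) and 1.47% (0.84 to 2.38), and Cog2 in 5.37% (4.43 to 6.43), 1.88% (1.27 to 2.70) and 1.75% (1.06 to 2.72). Fewer nuclei held each of these transcripts in the mutants. Grid1 was found in 2.88% (2.20 to 3.70), 0.65% (0.31 to 1.19) and 0.74% (0.32 to 1.45), and Klhl3 in 1.61% (1.11 to 2.25), 0.65% (0.31 to 1.19) and 0.55% (0.20 to 1.2). The differences from WT ran from -0.96 points (-1.69 to -0.22) for Klhl3 in BMD to -4.24 points (-5.35 to -3.17) for Map2k6 in BMD. Without drawing down, the shares were 22.2%, 6.89% and 7.46% for Gpr63, 19.4%, 7.02% and 7.46% for Map2k6, 13.02%, 5.46% and 5.34% for Grid1, 26.5%, 15.9% and 10.5% for Cog2, and 8.20%, 4.09% and 3.13% for Klhl3.

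WT also had the highest shares at greater depths, where fewer nuclei could be used. At 2000 UMIs, which 1435 WT, 1301 BMD and 835 DMD nuclei reached, Gpr63 was found in 17.1%, 3.77% and 4.91%, Cog2 in 19.7%, 8.69% and 5.63%, and Klhl3 in 6.06%, 2.38% and 1.92%. Nuclei with the transcript mostly held a single molecule. Gpr63-positive nuclei carried a mean of 1.24 UMIs (WT), 1.18 (BMD) and 1.15 (DMD) at that depth, and Map2k6-positive nuclei 1.23, 1.12 and 1.05. With so few positive nuclei this mean is held near 1, and it says nothing of the amount per nucleus.

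**Figure D4:**
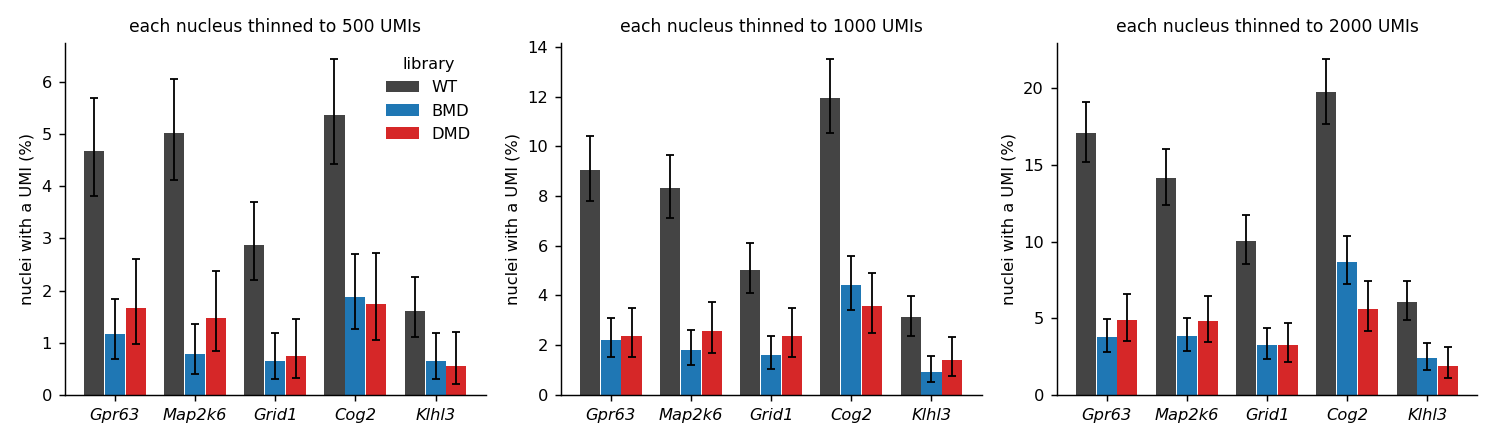
Share of cardiomyocyte-like nuclei with at least 1 UMI of each member (y axis, %) in the WT, BMD and DMD libraries after every nucleus was drawn down to 500, 1000 or 2000 UMIs (panels, each with its own y axis), with exact Clopper-Pearson intervals at 95%. The WT bar is above both mutant bars for each member at each depth, for example 4.68% against 1.17% and 1.66% for Gpr63 at 500 UMIs.

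Shares in other classes were set beside these, and a class that lacks a gene gives its background. Grid1 was found in 0 of 656 WT, 0 of 568 BMD and 0 of 449 DMD macrophage-like nuclei at 500 UMIs, which allows shares of up to 0.46%, 0.53% and 0.67%. The shares of 0.65% in BMD and 0.74% in DMD cardiomyocyte-like nuclei were little above those limits, which are set by the number of nuclei. Classes with more nuclei gave lower values. Grid1 was found in 0.13% (BMD) and 0.05% (DMD) of endothelial-like nuclei. In fibroblast-like nuclei it was found in 0 of 1644 (BMD) and 0.04% (DMD). Its level was 17.5 CPM in BMD and 18.5 CPM in DMD cardiomyocyte-like nuclei, against 2.05 and 2.85 CPM in all other nuclei. Gpr63 was found in 0.15%, 0.18% and 0.22% of WT, BMD and DMD macrophage-like nuclei (median depths before drawing 1061, 1088.5 and 1045 UMIs). It was found in 1.24%, 0.85% and 1.17% of fibroblast-like and 1.13%, 2.62% and 2.13% of mural-like nuclei, so the shares of 1.17% and 1.66% in mutant cardiomyocyte-like nuclei were within the range of these classes. For Cog2, fibroblast-like nuclei also had a higher share in WT, 2.87% (2.35 to 3.47) against 1.58% (1.04 to 2.31) for BMD and 1.82% (1.32 to 2.46) for DMD. In macrophage-like nuclei the Cog2 difference from WT was -1.62 points (-3.48 to 0.23) in BMD and -2.09 points (-3.90 to -0.19) in DMD. In endothelial-like, mural-like, lymphatic-like and T or B-like nuclei its difference intervals held 0 in both mutants. Map2k6 in macrophage-like nuclei had the opposite order, with 2.44% (WT), 3.87% (BMD) and 6.46% (DMD). Its share was lower in DMD endothelial-like nuclei, at -2.66 points from WT (-4.17 to -1.21), and DMD fibroblast-like nuclei, at -1.36 points (-2.24 to -0.44). In BMD the intervals of these classes held 0. Those of mural-like, lymphatic-like and T or B-like nuclei held 0 in both mutants. Klhl3 was found in 10.1% (7.18 to 13.7) of T or B-like nuclei from WT, 3.54% (1.63 to 6.62) from BMD and 3.85% (1.94 to 6.78) from DMD. The differences from WT were -6.57 points (-10.7 to -2.32) for BMD and -6.27 points (-10.4 to -2.12) for DMD. These shares came from 1 random draw, and without drawing down they were 12.1% (8.88 to 15.9), 7.87% (4.88 to 11.9) and 9.09% (6.02 to 13.04), with overlapping intervals.

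Counted per nucleus at 2000 UMIs, 48.3% of WT cardiomyocyte-like nuclei held none of the 5 members, against 80.0% in BMD and 80.6% in DMD. A pair of members was found in 11.4% (WT), 1.92% (BMD) and 1.08% (DMD) of the nuclei, and 3 members in 1.74% of WT nuclei and in 0 of 1301 BMD and 0 of 835 DMD nuclei. In WT, the 10 possible pairs occurred together in 12 to 47 of 1435 nuclei, where the product of the separate shares gave 8.73 to 48.3 nuclei. For Gpr63 with Map2k6 the counts were 25 observed and 34.7 from the product, and for Map2k6 with Cog2 they were 47 and 40.0. These differences were not tested. Counts this small, mostly of single UMIs, cannot show whether the members shared a subset of WT nuclei. Map2k6 and Klhl3 were both higher in the same finer cluster of WT nuclei, as given above.

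RNA outside nuclei was read from barcodes with 1 to 50 UMIs, droplets taken to hold free RNA of the suspension and no nucleus. These barcodes gave 1575674 UMIs (WT), 633966 (BMD) and 709588 (DMD). Of those UMIs, barcodes with 1 to 10 UMIs gave 375274 (WT), 572829 (BMD) and 622574 (DMD). They were thus most of the window in the mutants but not in WT, so the ratios in this window compare unlike barcodes. Values from another window are given below for each member. Gpr63 was at 57.8 CPM in WT free RNA (46.5 to 70.9), 17.4 CPM (8.66 to 31.0) for BMD and 11.3 CPM (4.87 to 22.2) for DMD, with log2 ratios of -1.49 (-2.26 to -0.73) for BMD and -1.95 (-2.72 to -1.14) for DMD. The lower level of Gpr63 was therefore also present in free RNA. Grid1 had 33, 1 and 4 UMIs, or 20.9, 1.58 and 5.64 CPM, and log2 ratios of -1.98 (-2.40 to -0.82) for BMD and -1.29 (-2.08 to -0.30) for DMD. Cog2 was at 63.5, 39.4 and 16.9 CPM, with log2 ratios of -0.62 (-1.23 to -0.04) for BMD and -1.64 (-2.37 to -0.92) for DMD.

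Map2k6 had smaller ratios in free RNA than in cardiomyocyte-like nuclei, a difference that was not tested. Map2k6 was at 68.5, 45.7 and 40.9 CPM, with log2 ratios of -0.54 (-1.11 to 0.02) for BMD and -0.68 (-1.25 to -0.13) for DMD. Its free RNA level was 79.2% of the cardiomyocyte-like level in WT, 241% in BMD and 161% in DMD, so in the mutants this transcript was more abundant outside nuclei than in cardiomyocyte-like nuclei. With free RNA subtracted, at an estimated 14.2%, 22.0% and 11% of the UMIs of cardiomyocyte-like nuclei, the ratio of Map2k6 in those nuclei was -2.53 in BMD. The estimate took every UMI of other classes' markers in these nuclei as free RNA. Transcripts of those markers made by the nuclei themselves would raise it, so it is an upper limit, and their part was not tested. Klhl3 had 26, 4 and 15 UMIs, or 16.5, 6.31 and 21.1 CPM, and log2 ratios of -0.93 (-1.78 to 0.10) in BMD and 0.28 (-0.51 to 1.05) in DMD. The window of barcodes decided these values of Klhl3, which were -1.52 (-2.57 to -0.24) in BMD and -0.24 in DMD with 1 to 10 UMIs, and -0.13 and -0.15 with 11 to 200 UMIs, so Klhl3 had no steady direction in free RNA. Both genes had higher levels in other classes than in cardiomyocyte-like nuclei, as given above.

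Cardiomyocyte markers were not lower in the free RNA of the mutants. The summed level of 11 cardiomyocyte markers, Myh7 left out, was 10109 (WT), 17815 (BMD) and 11790 CPM (DMD) in free RNA. Per 1000 UMIs of these markers, free RNA held 5.71 UMIs of Gpr63 (WT), 0.97 (BMD) and 0.96 (DMD), and 6.28, 2.21 and 1.43 UMIs of Cog2. Droplets with free RNA sat at different depths in the 3 libraries. With barcodes of 11 to 200 UMIs instead, which gave 3284062, 5225496 and 3988328 UMIs, Gpr63 was at 47.8, 29.3 and 13.8 CPM and Grid1 at 21.0, 12.8 and 7.52 CPM, with smaller ratios in BMD of -0.62 (-0.91 to -0.33) and -0.55 (-0.93 to -0.16). Cog2 in this window had log2 ratios of -0.98 (-1.28 to -0.68) for BMD and -0.95 (-1.27 to -0.63) for DMD, close to each other. Map2k6 had -0.80 (-1.05 to -0.55) for BMD and -0.80 (-1.07 to -0.53) for DMD, so both intervals lay below 0.

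**Figure D5:**
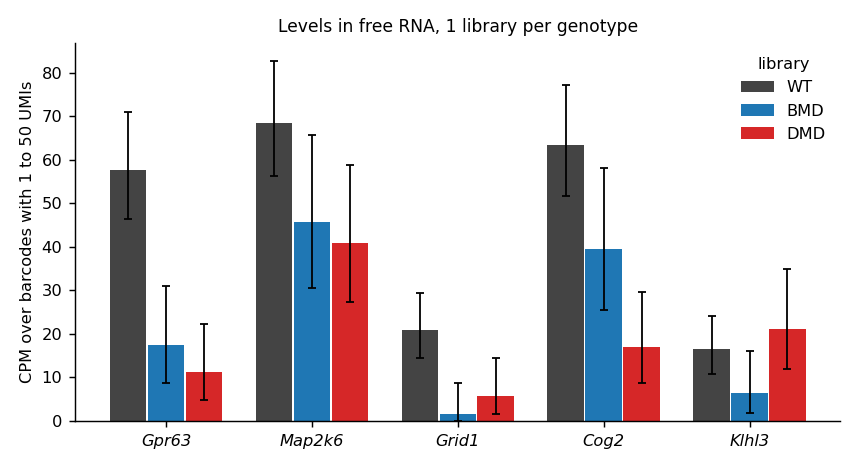
Level of each member in CPM (y axis) over the barcodes with 1 to 50 UMIs of the WT, BMD and DMD libraries, with bars for 1 library each and error bars for the exact Poisson interval at 95%. Gpr63 stands at 57.8 CPM in WT against 17.4 CPM in BMD and 11.3 CPM in DMD, while the intervals of Klhl3, at 16.5, 6.31 and 21.1 CPM, overlap.

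Genes that work with the members were counted in cardiomyocyte-like nuclei by the same limit of 1.5-fold, which 2.44% of all genes passed as lower and 2.43% as higher in both mutants. With lists of this size, a count of 0 is near that background. Of the p38 kinase module around Map2k6, 20 of 25 genes had at least 50 UMIs, and 0 of the 20 were lower by 1.5-fold in both mutants. The module held 1 gene higher in both, Dusp1, a phosphatase that switches off p38, at 41.9 (WT), 123 (BMD) and 79.9 CPM (DMD). Map3k5 and Map3k20, upstream kinases and the most counted of the module, had log2 ratios of -0.06 and -0.32 in BMD and -0.05 and -0.14 in DMD. The median of the 20 was -0.15 in BMD and -0.14 in DMD.

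The COG complex and the Golgi proteins it works with, 19 of 19 measured, held 0 genes lower and 0 higher in both mutants, with medians of -0.01 and -0.03. Cog5, another COG subunit and the most counted of them, was at 524 (WT), 379 (BMD) and 432 CPM (DMD), and Vti1a, a Golgi SNARE, at 223, 230 and 193 CPM. Of 14 measured genes around cullin-3, WNK kinases and cation-chloride cotransport, on which Klhl3 acts, 0 were lower and 1 was higher in both. That gene was Wnk4, a kinase that Klhl3 marks for degradation, at 7.63 (WT), 18.7 (BMD) and 16.5 CPM (DMD), with log2 ratios of 0.91 (0.58 to 1.22) for BMD and 0.77 (0.38 to 1.14) for DMD. Wnk1 and Wnk2, the most counted, had log2 ratios of 0.23 and -0.01 in BMD and 0.30 and 0.19 in DMD.

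Ionotropic glutamate receptors and the partners of delta receptors were mostly too low to follow, with 6 of 22 measured. Of these 6, beside 2.44% of all genes, 2 were lower in both mutants: Nrxn3, a neurexin, at 14.8, 2.99 and 5.07 CPM, and Grik4, a kainate receptor subunit, at 40.6, 25.2 and 16.7 CPM. Gria3, an AMPA receptor subunit and the most counted, was at 709, 830 and 872 CPM. Of 11 lysophospholipid receptors and relatives of Gpr63, 6 were measured, 1 was lower and 1 was higher in both, beside 2.44% and 2.43% of all genes. S1pr3, a sphingosine 1-phosphate receptor, was at 17.0, 7.32 and 8.63 CPM, and Lpar3, a lysophosphatidic acid receptor, at 3.11, 20.9 and 28.7 CPM. Lpar1, the most counted, was at 145, 161 and 147 CPM.

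The genes next to the members, by their order in RefSeq, did not show a shared low level either. Abca5, beside Map2k6, was higher in the mutants at 34.3 (WT), 77.9 (BMD) and 91.8 CPM (DMD), with log2 ratios of 1.08 (0.87 to 1.29) for BMD and 1.30 (1.08 to 1.53) for DMD. Wapl, a cohesin release factor beside Grid1, was at 172, 187 and 201 CPM. Fhl5, beside Gpr63, was lower in the mutants but near the floor, with 20 (WT), 4 (BMD) and 5 UMIs (DMD), or 3.11, 0.60 and 1.27 CPM. Its log2 ratios were -0.54 (-0.73 to -0.21) for BMD and -0.37 (-0.67 to 0.05) for DMD. The other neighbours found in the files were at or below 1.87 CPM, which is too low to follow. Among them was Agt, the gene of angiotensinogen, which overlaps Cog2 and had 0.78, 0.30 and 0.25 CPM, and how reads of the overlap were assigned was not checked.

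The pattern of each member over the 7 classes and 3 libraries was compared with that of 8993 genes by the Pearson correlation of log2 levels over these 21 sums, which share libraries and differ in depth. The genes most like Grid1 were Masp1 (r = 0.94), Art1 (0.93) and Phyh (0.93), and those most like Gpr63 were Cacna2d1 (0.87), Adamts12 (0.86) and Wipi1 (0.85). For Klhl3 they were Foxo1 (0.92), Sft2d2 (0.89) and Arhgap12 (0.88), and for Map2k6 Casp2 (0.90), Jade2 (0.89) and Uhrf2 (0.88). Cog2 had no gene as close, with Disp1 at 0.74, Tob2 at 0.70 and Pgk1 at 0.69. Among the members themselves Map2k6 and Klhl3 had 0.68 and Gpr63 and Grid1 0.58, while Gpr63 and Map2k6 had -0.52, so the members did not share 1 pattern over the classes.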

How the data were processed

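Single-nucleus RNA-seq was made from 3 libraries, 1 each for WT, BMD and DMD rats, with sample labels naming a 10x 3′ v3.1 kit. The authors deposited raw UMI count matrices with all barcodes, made with Cell Ranger (the file headers give 6.0.1 for the WT matrix and 4 for the others) on rn6, and whether intronic reads were counted is not given in the sources used here. The matrix deposited for WT joins 3 libraries under barcode suffixes. Barcodes with suffixes -1 and -2 match the BMD and DMD matrices, with 76.1% and 92.9% of their UMIs, so suffix -3 was taken as WT and BMD and DMD counts came from their own matrices.

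Nuclei were the barcodes with most UMIs, as many per library as the study kept, which left 24664 with at least 513 (WT), 525 (BMD) and 546 (DMD) UMIs. Median depth was 1212.5, 1486.5 and 1229 UMIs. Counts without the 5 members were scaled to 10000 per nucleus and clustered with scanpy 1.11.5 (2000 variable genes, 30 principal components, 15 neighbours, Leiden resolution 0.5). Mitochondrial genes, Xist and Y genes, and Nppa, Nppb, Myh6, Myh7, Tmem65, Ryr2, Gja1 and Dmd were left out of the clustering as well. A cluster was named "-like" with at least 3 markers raised 2-fold, and a rule that left mitochondria-led clusters unnamed was set after the data were seen. Scrublet marked 1.32%, 1.10% and 5.43% of WT, BMD and DMD cardiomyocyte-like nuclei as doublets, which were kept in the main values and removed in an alternative.

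UMIs were summed per class and library and given as CPM with exact Poisson intervals (scipy 1.17.1). Ratios are log2 of CPM + 5 with exact conditional binomial intervals, and a gene was counted as lower at 1.5-fold with at least 50 UMIs. As 1 library stood for a genotype, no test was run. Shares used 1 seeded draw of 500 UMIs per nucleus. Alternatives covered a pseudocount of 1, TMM scaling (edgeR 4.0.16, R 4.3.3), minimum UMIs, doublets, clustering resolution, the counts of the joined matrix, free RNA and drawing depth. The calculations were tested on simulated data. The text names all members, the partner genes past 1.5-fold in both mutants plus the 2 most counted of each list, adjacent genes, the 2 genes just outside the ranking and the 3 genes most like each member. The members and lists were chosen with earlier results of these data known. Promoters came from RefSeq (GRCr8), and their coordinates are not those of the build used for counting.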

Additional observations from a re-analysis of the deposited data

Results flagged for a closer look

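In 2 cases a member had a log2 ratio over WT above 0 in another class, with an interval wholly above 0, while its ratio in cardiomyocyte-like nuclei was below 0. For Gpr63 the ratio of BMD over WT was 0.93 (0.13 to 1.73) in mural-like nuclei, from 17 UMIs in WT and 28 in BMD, and -1.89 in cardiomyocyte-like nuclei. For Map2k6 the ratio of DMD over WT was 0.87 (0.33 to 1.40) in macrophage-like nuclei and -1.59 in cardiomyocyte-like nuclei. With 1 library per genotype, the difference between the classes was not tested, and the intervals cover counting error only.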

How the results depend on the processing

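The members were chosen on the same cardiomyocyte counts, so the sign of their ratios and shares under other processing is no independent support. Of 120 alternative values of the cardiomyocyte ratios, 120 were below 0 (from -2.53 to -1.14). Only 1 moved, Map2k6 in BMD at -2.53 with free RNA subtracted. That setting also moved Map2k6 in DMD over BMD to 0.79. In other classes 349 of 350 values kept within the limits set, and Cog2 in DMD endothelial-like nuclei moved to -0.0075 with at least 1000 UMIs per nucleus. Those limits were wide where UMIs were few. At the same minimum, Cog2 in T or B-like nuclei went from -1.33 to -0.16 in BMD and from 0.06 to 0.85 in DMD. Both counted as kept, so the 349 do not show stable values in sparse classes. In free RNA of barcodes with 11 to 200 UMIs, Gpr63 moved to -0.62 and Grid1 to -0.55 in BMD. Differences in shares grow with depth by construction, and all 70 were below 0. Drawn to 1000 UMIs, they were -6.84 (BMD) and -6.67 (DMD) points for Gpr63, -6.52 and -5.75 for Map2k6, -7.55 and -8.40 for Cog2, and in BMD -3.44 for Grid1 and -2.18 for Klhl3. Drawn to 2000 UMIs, a depth added after seeing the data, they were -13.3 and -12.2 for Gpr63, -10.3 and -9.36 for Map2k6, -6.81 and -6.80 for Grid1, -11.0 and -14.1 for Cog2, and -3.68 and -4.15 for Klhl3. Not drawn down, they were -15.4 and -14.8, -12.4 and -12.0, -7.57 and -7.68, -10.6 and -16.0, and -4.10 and -5.06 in the same order of genes. Counts of lower genes moved with the UMIs required of a gene, since other genes are then counted. At 200 UMIs they were 200 (fibroblast-like, DMD), 202 and 76 (endothelial-like, BMD and DMD), 213 and 164 (macrophage-like) and 90 and 62 (mural-like), and at 20 UMIs 1160 and 1001 (macrophage-like) and 1002 and 730 (mural-like). The cause of the other moves was not tested. Classes with few nuclei limit Grid1 and Gpr63 outside cardiomyocytes. No paired analysis was possible because each genotype had 1 library and the labels give no replicate numbers.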
